A study of Mus musculus with 12 samples.

Results

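Phf6 was reduced in 2 ways in the same kind of leukemia cell, by a short hairpin RNA and by Cas9 guides, and the knockdown libraries were compared here with the libraries of both knockouts. The members are 9 of the series' 12 RNA-seq libraries, chosen by their labels: 3 knockdown libraries, 3 libraries of knockout guide 1 and 3 of knockout guide 4, with equal weight given to each guide. The other 3 libraries, wild type for Phf6, are given as reference levels only. All of them come from pre-B leukemia cells of the C57BL/6J strain, transformed precursors of B cells, that overexpress the BCR-ABL1 tyrosine kinase and are null for p19, and all were grown in RPMI-1640 with serum. The labels call the Phf6 genotype shRNA in the knockdown, Null in both knockouts and Wild-type in the reference. They do not say whether replicates were separate cultures, whether a knockout line is 1 clone, or when each library was made, so the p-values below measure only the spread between libraries, which may be technical.

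PHF6 is an X-linked nuclear and nucleolar protein with a pair of extended PHD fingers that interacts with the NuRD chromatin-remodelling complex and with regulators of ribosomal RNA transcription. In people its gene is often lost in T-cell leukemias, and the study asked about its role in the identity of B-lineage leukemia cells. A hairpin acts on the mRNA through the RNA interference machinery and leaves the gene intact, whereas Cas9 cuts the gene and may leave a transcript that no longer encodes the protein, so the mRNA level reads a knockdown directly but not a knockout.

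Phf6 mRNA in the knockdown lay between the levels of the 2 guides. It stood at 9.08, 8.98 and 8.29 CPM (counts scaled for library depth and composition) in the knockdown, at 3.23, 3.24 and 3.74 with guide 1 and at 44.3, 29.5 and 36.1 with guide 4, against a wild-type mean of 34.5. The knockdown was therefore higher than guide 1 in every library, by 1.38 on the log2 scale, and lower than guide 4 in every library, with a log2 difference of -2.07. Averaged over the guides the difference was -0.34 ± 0.12 (SE; edgeR quasi-likelihood test, Benjamini-Hochberg adjusted p = 0.0136), a value that no longer passed the test without knockdown replicate 3 (adjusted p = 0.0787). The loss of Phf6 with guide 4 rests on its label, since its mRNA was near the wild-type level. Cdkn2a, the locus of p19, read 32.7 to 35.7 CPM in the knockdown and 49.7 to 79.2 in the knockouts.

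The knockdown libraries stood far from both knockouts across the transcriptome. Of 12335 genes tested, out of 23224 in the table, 5292 were higher in the knockdown (42.9%) and 4978 lower (40.4%) at an adjusted p under 0.05, together 83.3%. At least 2-fold differences were found for 2937 genes above (23.8%) and 1270 below (10.3%). The median size of a difference was 0.725 on the log2 scale, against 0.187 between the 2 guides, which differed at 27.2% of the genes. Against guide 1 alone, 80.5% of the genes were called, 41.7% higher and 38.8% lower, with 23.7% and 11.6% at 2-fold. Against guide 4 alone, 80.8% were called, 40.1% higher and 40.7% lower, with 23.1% and 9.91% at 2-fold. Both of these comparisons use the same knockdown libraries. Shares this high are the background against which every list below has to be read: a gene taken at random was more likely called than not. All 3 knockdown libraries stood above all 6 knockout libraries for 36.1% of the genes and below them for 35.6%. Groups that do not overlap were therefore common among all genes too. With plain library totals in place of the composition scaling, 62.7% of the called genes were higher instead of 51.5%, and the median over all genes moved from 0.05 to 0.29, so differences smaller than this shift depend on the scaling.

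Several features of the libraries moved with the knockdown, and their part in the gene results was not tested. Transcripts of Uty, Kdm5d and Ddx3y, all on the Y chromosome, summed to 100 to 105 CPM in the knockdown and to 76.5 to 88.3 in the wild type, but to 0.031 to 0.147 in the 6 knockout libraries. Loss of Y-linked transcripts and the way Phf6 was reduced cannot be told apart in this comparison. Non-coding RNAs that carry no poly(A) tail were also unequal. Rpph1, the RNA of ribonuclease P, read 3.03, 1.7 and 2.66 CPM in the knockdown, 285, 234 and 356 with guide 1 and 112, 221 and 192 with guide 4, and the wild type had 138. The ribosomal RNA precursor Rn45s made up 0.665% to 1.28% of the counts in the knockdown and 1.22% to 6.4% in the knockouts. Reads assigned to small nucleolar RNA genes went the other way, with a sum of 83.4 to 89.7 CPM in the knockdown and 38.5 to 51.5 in the knockouts. The labels give 1 library kit and no batch, so a difference in library making and the hairpin cannot be told apart. The 13 pre-B markers checked were each at 1 CPM or more on average in every group, and the 6 T-cell markers summed to 1.06 to 2.19 CPM over the 9 libraries.

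A further feature divided the genes along the kind of protein they encode. A hydrophobic segment was defined as a stretch of 19 residues with a mean Kyte-Doolittle hydropathy of at least 1.6, which is typical of membrane-spanning helices and signal sequences, whose mRNAs are translated at the endoplasmic reticulum. Among 3843 genes whose protein has such a segment, 69.2% were higher in the knockdown and 17.7% lower, with a median log2 difference of 0.94. Among 7659 genes without one, 28.2% were higher and 54.0% lower, with a median of -0.28. The medians were 0.93 and -0.26 against guide 1, and 0.91 and -0.31 against guide 4. By decile of hydropathy, the median moved from -0.63 in the lowest to 1.40 in the highest, with most of the step between the seventh, at -0.03, and the ninth, at 1.18. Within the shortest, middle and longest transcripts, genes with a segment had medians of 0.98, 1.06 and 0.83, and genes without one had -0.61, -0.26 and 0.00. Because many of the groups described below are made up of membrane or secreted proteins, each is given also after the trend with hydropathy had been removed from every library, an alternative chosen after seeing the data. That fit was limited to the 11502 tested genes with a coding sequence, so list members without one drop out. Over all its genes 4612 were higher and 4608 lower.

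**Figure D1:**
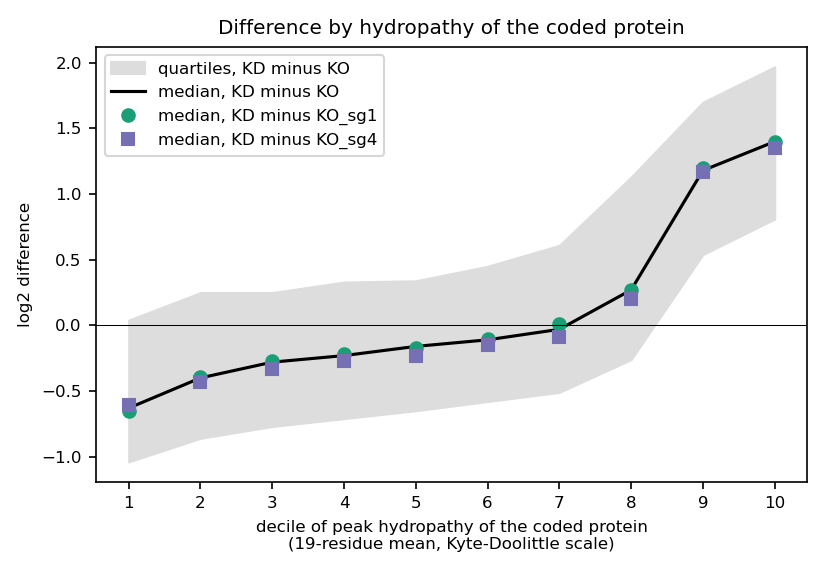
Median log2 difference between the knockdown and the knockouts (y axis, CPM scaled for composition) for genes in 10 deciles of the highest 19-residue hydropathy of their protein (x axis); the line is the equal-weight contrast, circles and squares the 2 guides, and the grey band the quartiles over genes. The median lies at -0.63 in the first decile and at 1.40 in the last, with the 2 guides close together.

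The genes with the greatest excess in the knockdown were near-silent in both knockouts and came from several families. Ly86, the secreted partner of the Toll-like receptor homologue RP105 on B cells, read 19.3, 21.4 and 22.8 CPM in the knockdown and 0 in all 6 knockout libraries, at least 1120-fold lower (limit from 3 counts over the group); the wild type had 27.2. Stc2, which encodes the secreted glycoprotein stanniocalcin 2, read 73.8, 68 and 66.9 CPM in the knockdown, with a single count over all knockout libraries, a ratio of 11100 (95% counting interval 1990 to 437000), and 8.68 in the wild type. Rap1gap2, a GTPase-activating protein of the adhesion regulator Rap1, read 66.2, 65.8 and 64.4 CPM in the knockdown, 0 to 0.0295 with guide 1 and 0.0489 to 0.279 with guide 4, a ratio of 577 (365 to 975). In each of these genes every knockdown library stood far above every knockout library. The wild type was close to the knockdown for Ly86 and Rap1gap2 but not for Stc2, where the knockdown was also far above it.

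Among the other genes at this end were 2 Y-linked ones and a run of secreted or cell-surface proteins. Kdm5d, a Y-linked histone demethylase, was at least 2160-fold higher in the knockdown, and Ddx3y, a Y-linked RNA helicase, had a ratio of 2540 (870 to 12300). Ccl3 and Ccl4, neighbouring chemokine genes, read 32.1 to 35.5 and 10.2 to 11 CPM in the knockdown against 0 to 0.404 and 0 to 0.0558 in the knockouts, and wild-type means of 5.57 and 1.63. Axl, a receptor tyrosine kinase that binds Gas6, read 8.39 to 10.8 CPM against 0 to 0.034. Plaur, the urokinase receptor, and Thbs1, which encodes thrombospondin 1, were at 0 in every knockout library and at 7.21 to 8.8 and 5.49 to 6.41 CPM in the knockdown. Thbs1 differed from the rest in its wild-type mean of 0.0713 CPM, so that the knockdown alone carried it. Abcc1, a multidrug efflux pump, read 17.4 to 19 CPM, Clec7a, the beta-glucan receptor dectin-1, 16.5 to 18.1, and Olfm1, a secreted olfactomedin, 56.4 to 59.8, against 0 to 0.612 CPM for Olfm1 in the knockouts. Bahcc1, a chromatin protein with a BAH domain, read 13.1 to 14 CPM against a wild-type mean of 8.78 and 1 count in the knockouts. In all, 14 genes with a knockdown mean of at least 5 CPM had 3 counts or fewer over both knockouts, 12 of them not on the Y chromosome, and 12 of the 14 had at least 1 CPM in the wild type.

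At the opposite end, genes low in the knockdown and high with both guides included T-cell signalling adaptors and metabolic enzymes. Scn4b, an auxiliary subunit of voltage-gated sodium channels, read 1.75, 1.62 and 1.55 CPM in the knockdown, 39.8, 46 and 35.9 with guide 1 and 43.8, 31 and 37.7 with guide 4, a log2 difference of -4.57 ± 0.14. Klhdc2, through which a cullin ubiquitin ligase recognises C-terminal degrons, read 6.43, 7.02 and 6.33 CPM in the knockdown, 95.3, 102 and 94.3 with guide 1 and 104, 105 and 116 with guide 4, a difference of -3.96 ± 0.07. The groups did not overlap for either gene, as for 35.6% of all genes in this direction. The wild type, at 0.807 and 17.9 CPM, was low for Scn4b and between the groups for Klhdc2. Grap2 and Sh2d2a, adaptors of T-cell receptor signalling, were lower by -3.64 and -3.06 on the log2 scale, and Lck, the Src-family kinase of T cells, read 8.45 to 9.08 CPM against 83.2 to 86 with guide 1 and 42.7 to 49.4 with guide 4. The T-cell list as a whole did not follow them, with 6 of 17 genes higher and 3 lower and a median of 0.44, and with 6 higher, 6 lower and a median of -0.22 once the hydropathy trend was removed. Its member Cd28, a costimulatory receptor of T cells, read 36.1 to 40.3 CPM in the knockdown against 2.34 to 2.77 with guide 1 and 0.147 to 1.11 with guide 4. The carbonic anhydrases Car2 and Car3 read 24.2 to 25.1 and 4.46 to 5.31 CPM against 205 to 290.1 and 39.7 to 54. Mgll, monoacylglycerol lipase, and Cplx2, the exocytosis regulator complexin 2, differed by -2.80 and -2.77. Zfp462, a zinc finger protein, and Cacna1h, a T-type calcium channel, were each under 0.5 CPM in every knockdown library and at 1.42 to 7.52 and 3.59 to 9.09 CPM in the knockouts. Hist1h2bj, a histone H2B, differed by -2.66. Amd1, an enzyme of polyamine synthesis, was at 0 in all knockdown libraries but also in 1 library of each guide and in 2 of the wild type, and it has a near-identical copy, Amd2, at 64.9 to 66.1 CPM in the knockdown and 67.2 to 112 in the knockouts. How RSEM divides reads between such copies makes its value uncertain, and limma-voom did not call it (adjusted p = 0.315).

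**Figure D2:**
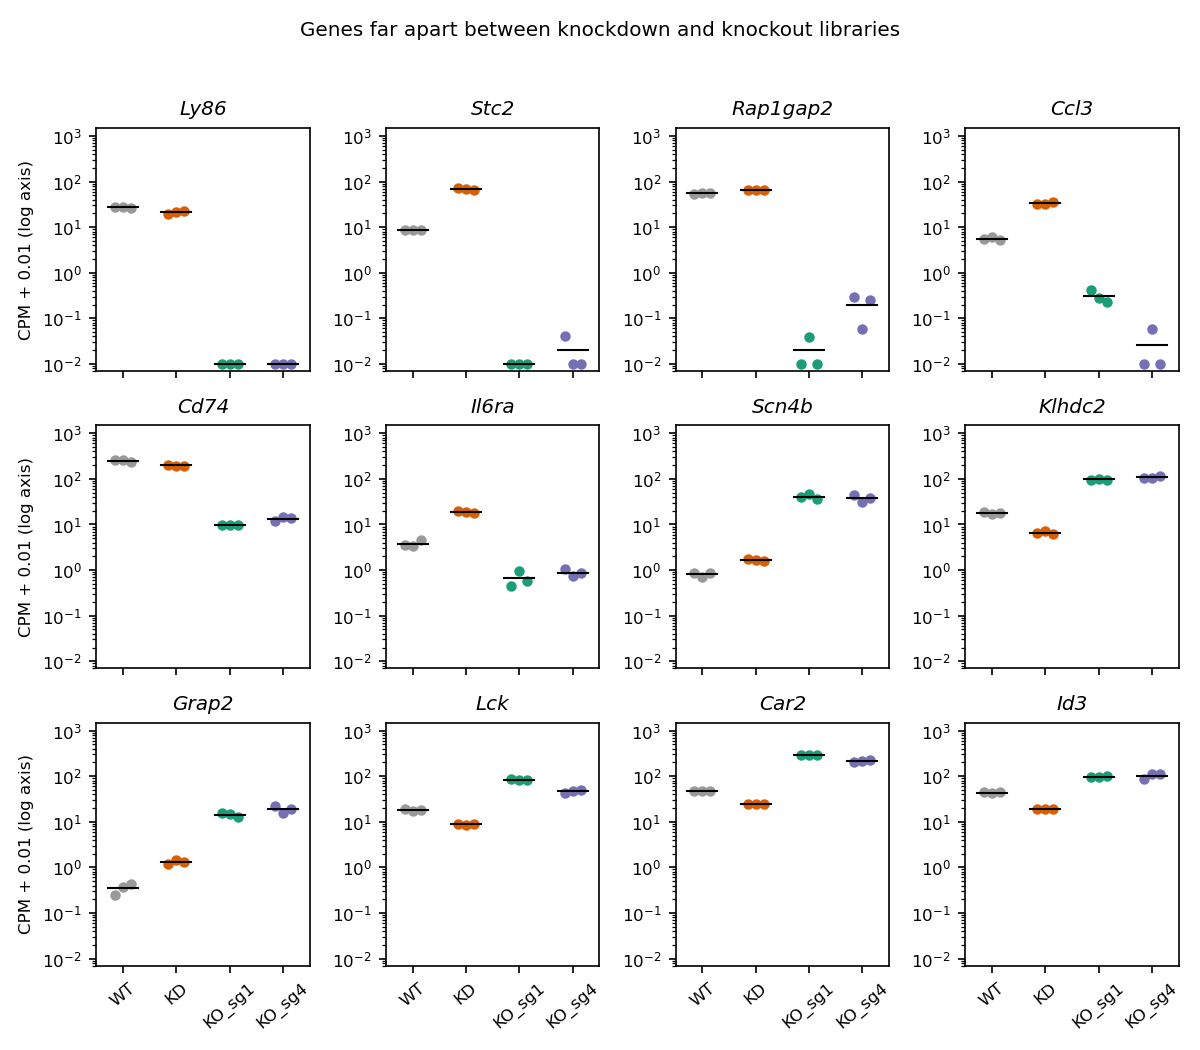
CPM + 0.01 (log axis, the same in all panels) of 12 genes in each library, with 3 points and a mean line per group (WT, wild type; KD, knockdown; KO_sg1 and KO_sg4, the 2 guides). Ly86 and Stc2 sit at or near the lower edge in the knockouts, and Scn4b, Klhdc2, Grap2, Lck, Car2 and Id3 are lower in the knockdown than in either guide.

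The promoters of 2 genes from each end are shown as examples, from RefSeq (GRCm38.p6, 250 bases before to 50 after the annotated start; the counts themselves were made on mm9), 5′ to 3′ on the gene's strand, with CG dinucleotides in capitals. Among genes with a promoter in the table, Ly86 and Stc2 are the highest pair that is not Y-linked, and Scn4b and Klhdc2 the lowest pair whose groups did not overlap. They lie at chr13:37345095-37345394 on the plus strand for Ly86, at chr11:31370012-31370311 on the minus strand for Stc2, at chr9:45138374-45138673 on the plus strand for Scn4b and at chr12:69296431-69296730 on the plus strand for Klhdc2.
Ly86: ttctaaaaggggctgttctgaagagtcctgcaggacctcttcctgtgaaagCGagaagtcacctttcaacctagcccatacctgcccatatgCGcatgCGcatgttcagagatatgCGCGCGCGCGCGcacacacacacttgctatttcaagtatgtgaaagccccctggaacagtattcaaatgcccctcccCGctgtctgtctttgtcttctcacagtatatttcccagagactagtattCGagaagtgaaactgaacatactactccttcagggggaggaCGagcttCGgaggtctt
Stc2: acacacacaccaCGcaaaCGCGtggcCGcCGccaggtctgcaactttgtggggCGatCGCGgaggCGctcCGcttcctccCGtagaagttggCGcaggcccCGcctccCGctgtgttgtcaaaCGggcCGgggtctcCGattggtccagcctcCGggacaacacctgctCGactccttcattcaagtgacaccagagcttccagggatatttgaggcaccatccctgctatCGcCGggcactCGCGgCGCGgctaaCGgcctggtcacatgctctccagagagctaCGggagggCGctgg
Scn4b: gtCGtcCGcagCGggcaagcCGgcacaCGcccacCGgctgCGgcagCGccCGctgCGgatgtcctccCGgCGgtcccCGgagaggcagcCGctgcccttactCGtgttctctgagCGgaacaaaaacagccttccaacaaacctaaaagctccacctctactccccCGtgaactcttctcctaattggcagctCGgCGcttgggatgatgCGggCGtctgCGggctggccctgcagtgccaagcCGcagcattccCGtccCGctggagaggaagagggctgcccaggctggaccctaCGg
Klhdc2: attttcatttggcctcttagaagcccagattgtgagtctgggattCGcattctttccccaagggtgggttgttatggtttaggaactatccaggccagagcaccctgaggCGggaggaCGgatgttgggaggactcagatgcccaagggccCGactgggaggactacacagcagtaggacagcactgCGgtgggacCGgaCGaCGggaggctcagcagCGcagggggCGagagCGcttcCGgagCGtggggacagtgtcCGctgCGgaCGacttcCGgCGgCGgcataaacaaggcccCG
They hold 13, 28, 26 and 20 CG dinucleotides in that order. Over the 11 highest and 8 lowest genes with a promoter in the table, the median was 15 and 15.5 CG dinucleotides, against 21.0 for the 9738 tested genes found there and 7.0 over all 27025 promoters. Of 7 motifs searched on both strands, TGANTCA, the AP-1 element, was in 1 of the 11 highest promoters and none of the 8 lowest, against 7.92% of all promoters. TGACGTCA, the palindromic NF-kappaB element and CACGTG were each in 1 of the 8 lowest and none of the 11 highest, against 1.85%, 0.322% and 7.24%. TTCNNNGAA, TCACNCCAC and CCATGTTG were in none of either, against 8.42%, 1.22% and 1.09%. No allowance was made for overlap between motifs.

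Antigen presentation and surface receptors were higher in the knockdown. Of 11 MHC class II genes tested, 10 rose against the knockouts and none fell, with a median log2 difference of 2.86. Cd74, the invariant chain that chaperones class II molecules, read 205, 190.2 and 197 CPM in the knockdown, 9.95, 9.76 and 9.71 with guide 1 and 11.9, 14.7 and 13.8 with guide 4. That is 4.11 ± 0.06 on the log2 scale, with a wild-type mean of 248, so that the knockdown was near the wild type and both guides were far below. H2-DMa and H2-DMb1, the peptide editor of the class II pathway, read 16.9 to 18.4 and 13.1 to 15.3 CPM against 1.37 to 3.6 and 0.88 to 2.85, lower with guide 4 than with guide 1. H2-Aa, the class II alpha chain, read 3.17 to 3.25 CPM against 0.206 to 0.408. For class I and peptide loading, 14 of 19 rose and 3 fell, with a median of 1.38. Tap1 and Tap2, the peptide transporter, differed by 1.96 and 1.97, H2-K1 by 1.72 and H2-M3 by 1.97, while the immunoproteasome subunits Psmb8 and Psmb10, picked after their values were seen, fell by 0.63 and 1.11. Of the 19, 15 have a hydrophobic segment, and 13 of those rose and none fell. With the hydropathy trend removed, class II had 7 above and 2 below (median 1.82), and class I had 12 above and 6 below (median 0.37).

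Receptors for cytokines and for adhesion followed. Of 29 cytokine receptors listed, 24 were tested, 24 rose and none fell, with a median of 1.69. Il6ra, the interleukin-6 receptor, read 20, 19.1 and 18 CPM in the knockdown, 0.445, 0.943 and 0.558 with guide 1 and 1.02, 0.733 and 0.85 with guide 4. Il4ra, the interleukin-4 receptor, read 128 to 134 CPM against 11.5 to 17.1, and Csf2rb2, a beta chain of the interleukin-3 receptor in mice, 27.3 to 27.9 against 1.63 to 4.18. Tgfbr1, the type I receptor for TGF-beta, read 22 to 23.2 CPM against 4.91 to 6.43 with guide 1 and 0.684 to 1.24 with guide 4. Each of the 24 has a hydrophobic segment, and with the trend removed 15 rose and 3 fell, with a median of 0.60. Of 26 integrins and adhesion receptors, 22 rose and 3 fell, with a median of 1.87. Itgam, the alpha chain of Mac-1, read 12.1, 12.1 and 12.4 CPM in the knockdown, 0.364, 0.413 and 0.279 with guide 1 and 0.96, 1.12 and 1.02 with guide 4, against 4.67 in the wild type, a difference of 4.31 ± 0.10. Itgax, the CD11c chain, had a ratio of 19.8 (7.22 to 75.8) from 45 counts against 4. With 14 counts in the wild type, it passed the filter on low counts through the knockdown alone. With the trend removed, 16 of the 26 rose and 2 fell, with a median of 0.60.

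The endoplasmic reticulum and its folding machinery were higher as a group. Of 24 chaperones and quality-control genes, 24 rose and none fell, with a median of 1.19, and with the trend removed 20 rose and 2 fell, with a median of 0.72. Atf6 and Ern1, sensors of unfolded protein in the endoplasmic reticulum, read 191 to 201 and 9.05 to 9.36 CPM against 33.6 to 43.3 and 1.66 to 2.26. Derl1 and Sel1l, parts of the channel that returns misfolded proteins to the cytosol, read 258 to 261 and 164 to 168 CPM against 65.3 to 80.6 and 41.9 to 58.3. Of 24 genes of the ATF4 and amino acid response, 15 rose and 5 fell, with a median of 0.41, and 19 and 4 with the trend removed. Slc3a2, the shared chain of amino acid exchangers, read 1789, 1698 and 1775 CPM in the knockdown, 378, 389 and 375 with guide 1 and 253, 264 and 271 with guide 4. Cebpb, a transcription factor of the response, read 5.12 to 5.83 CPM against 0.118 to 0.342, and Vldlr, a lipoprotein receptor, 21.2 to 23 against 1.56 to 2.59. Atf4 itself, picked after its value was seen, moved the other way, at 328 to 337 CPM against 459 to 752.

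Genes best known from myeloid cells were higher in the knockdown at low to moderate levels. Of 31 listed, 20 were tested, 18 rose and none fell, with a median of 4.27, and with the hydropathy trend removed 17 rose and 1 fell. The filter on low counts passes a gene that is high in 1 group alone, and members low in every group were left out. Fcgr1, the high-affinity receptor for immunoglobulin G, read 31, 29.5 and 30.6 CPM in the knockdown, 0.0404, 0.0884 and 0.112 with guide 1 and 0.186, 0.0978 and 0.204 with guide 4, and 13 in the wild type. Csf1r, the receptor for macrophage colony-stimulating factor, read 9.21 to 9.81 CPM against 0 to 0.147, a ratio of 251 (115 to 686), and Fcgr4 was at 0 in the knockouts, at least 39.9-fold below the knockdown. Fcgr4 passed the filter through the knockdown alone, with 68 counts there and 18 in the wild type, so its excess was a condition of being tested. The 6 myeloid markers used to check the cells summed to 58.3 to 59.5 CPM in the knockdown, 5.08 to 7.31 with guide 1, 7.71 to 8.53 with guide 4 and 15.1 to 16.0 in the wild type, and 2 of the 6 were at 0 with guide 1. In bulk RNA, more cells of a type and more RNA per cell cannot be told apart. Toll-like receptors and RP105 gave 13 higher and 2 lower of 18, with a median of 1.78 (12 and 2, with a median of 0.84, with the trend removed). Tlr9, which senses unmethylated DNA, read 29.2 to 29.5 CPM against 2.79 to 5.45, Tlr1 1.87 to 2 against 0 to 0.217, and Tlr7 had 54 counts in the knockdown against 1 in the knockouts. The Notch list gave 14 higher and 4 lower of 23, with a median of 1.09, and the ligand Jag2 read 30.6 to 34.6 CPM against 0.408 to 1.09. Notch2, a receptor, differed by 2.33. Of the 14 Notch genes with a hydrophobic segment 13 rose and none fell, and of the 9 without one 1 rose and 4 fell. With the trend removed the Notch list gave 14 higher and 5 lower, with a median of 0.35.

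**Figure D3:**
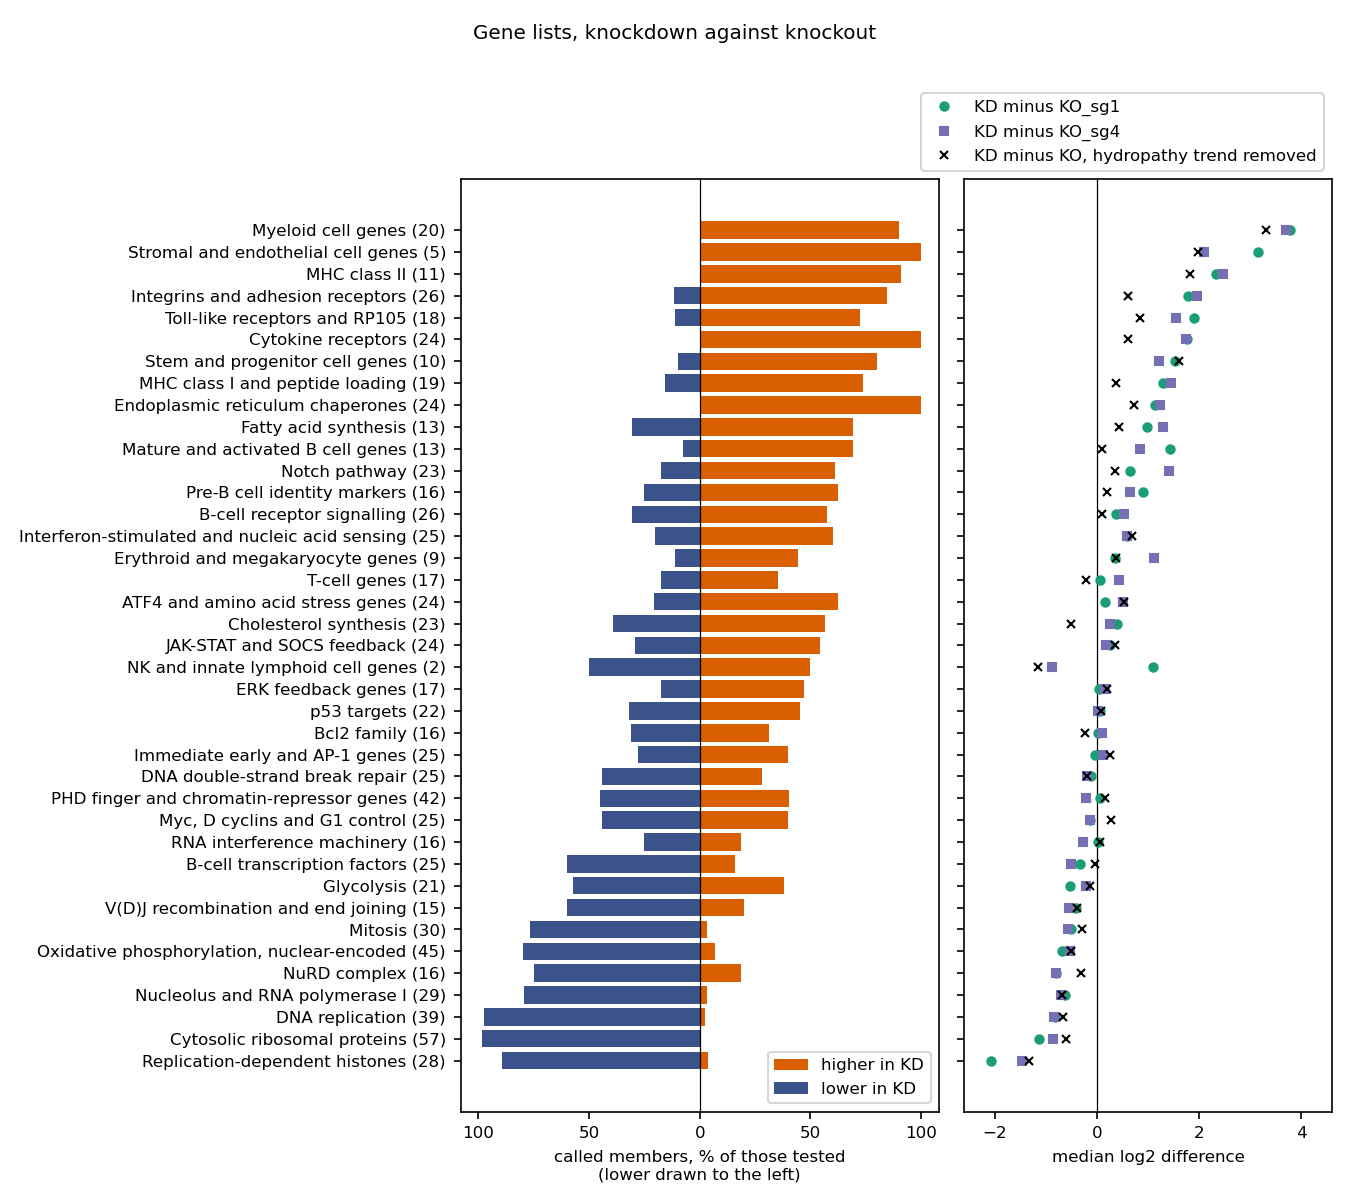
Left, share of the tested members of each gene list called higher (orange, right) or lower (blue, left) in the knockdown than in the knockouts, with the number tested in brackets; right, the median log2 difference against each guide (circles, squares) and after removal of the hydropathy trend (crosses). The lists run from replication-dependent histones, with a median of -1.81, to myeloid genes, with 4.27, and the crosses lie nearer to 0 for most lists of membrane proteins.

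The machinery of protein synthesis and of cell division was lower in the knockdown. Of 57 cytosolic ribosomal protein genes, 56 fell and none rose, with a median of -1.01, and 55 fell with the hydropathy trend removed, with a median of -0.60. The 4 with the largest differences were Rpl26, Rpl27, Rpl21 and Rpl30, and Rpl26 read 8.33, 16 and 12.7 CPM in the knockdown, 39.5, 61 and 62 with guide 1 and 35.8, 51.1 and 40.8 with guide 4. Ribosomal protein genes have many processed pseudogenes, so their counts depend on how reads that fit several copies were divided. Of 29 genes of the nucleolus and RNA polymerase I, 23 fell and 1 rose, with a median of -0.64, and 21 fell and 2 rose with the trend removed. Fbl, the methyltransferase fibrillarin, read 189.6, 185 and 182 CPM in the knockdown, 531, 497 and 538 with guide 1 and 406, 523 and 475 with guide 4, a difference of -1.41 ± 0.07. Gar1 and Nhp2, proteins of the pseudouridylation complex, differed by -1.46 and -1.45. Reads assigned to small nucleolar RNA genes went the other way. Of 45 such genes tested 77.8% were higher and none lower, against 42.9% and 40.4% of all genes. The libraries were made with an mRNA kit, and whether these reads come from mature small nucleolar RNAs was not tested.

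DNA replication gave 38 lower and 1 higher of 39, with a median of -0.90, and 31 lower and 3 higher with the trend removed. Mcm6, a subunit of the replicative helicase, read 162, 164 and 160.5 CPM in the knockdown, 348, 377 and 338 with guide 1 and 387, 365 and 406 with guide 4, a difference of -1.19 ± 0.05. Gins1 and Gins2, of the same helicase complex, differed by -1.15 and -1.31, and Prim2, the large primase subunit, by -1.31. Their groups did not overlap, as for 35.6% of all genes in this direction, and the wild type, at 314 CPM for Mcm6, was close to the knockouts. Mitosis gave 23 lower and 1 higher of 30, with a median of -0.58, and 21 and 7 with the trend removed, with a median of -0.29. Cdk1, the mitotic kinase, read 115 to 119 CPM against 220.4 to 262, and Cdc20, an activator of the anaphase-promoting complex, 120.3 to 127 against 240.0 to 274. Replication-dependent histones gave 25 lower and 1 higher of 28, with a median of -1.81, and 23 and 1 with the trend removed, with a median of -1.34. Most histone mRNAs lack a poly(A) tail, and the sum over 63 histone genes was 76.3 to 93.1 CPM in the knockdown and 118.6 to 330.0 in the knockouts. Between these groups the direction was that of Rpph1 and, for the most part, Rn45s. Within guide 4 the histone sum did not follow Rpph1. It was 159.4 CPM in replicate 1, with Rpph1 at 112.3, and 118.6 in replicate 3, with Rpph1 at 192.5.

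Mitochondrial respiration and the NuRD complex were lower as well. Of 45 nuclear-encoded genes of oxidative phosphorylation, 36 fell and 3 rose, with a median of -0.62, and 38 fell with the trend removed. Cycs, cytochrome c, read 105, 107 and 104 CPM in the knockdown, 322, 332 and 355 with guide 1 and 250.2, 327 and 308 with guide 4, and Uqcrb, a subunit of complex III, differed by -1.34. NuRD, which binds PHF6, gave 12 lower and 3 higher of 16, with a median of -0.63, and 10 and 3 with the trend removed, with a median of -0.31. Hdac2, a deacetylase subunit, read 60, 61.2 and 58.6 CPM in the knockdown, 121, 135 and 128 with guide 1 and 146, 148 and 149 with guide 4. Mbd2, a methyl-CpG-binding subunit, differed by -1.42 and Rbbp7, a histone chaperone subunit, by -1.22, while Chd5, a remodeller best known from neurons, was higher, at 0.968 to 1.39 CPM against 0.147 to 0.538. The wider list of PHD finger and chromatin-repressor genes was split, with 17 higher and 19 lower of 42, and 21 and 14 with the trend removed. There Phf1, a Polycomb partner, differed by 1.36, Cbx7, of the canonical Polycomb complex, by 1.23, and Phf5a, a splicing factor, by -1.23.

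Metabolic pathways were divided within themselves. In cholesterol synthesis, 13 of 23 genes rose and 9 fell. Of the 16 whose protein has a hydrophobic segment 13 rose and 3 fell (median 0.68), and of the 7 without one none rose and 6 fell (median -1.39). The 4 with the largest differences all fell: Idi1, which isomerises isopentenyl diphosphate, read 35.5, 36.2 and 32.9 CPM in the knockdown, 172, 198 and 173 with guide 1 and 218, 186 and 216 with guide 4. Acat2, which makes acetoacetyl-CoA, differed by -2.13, Mvd, mevalonate diphosphate decarboxylase, by -1.82, and Lss, lanosterol synthase, by -1.39. Chosen after its value was seen, the membrane enzyme Sqle, squalene epoxidase, differed by 0.78. With the hydropathy trend removed the balance of the pathway turned, to 5 higher and 16 lower, and Sqle then read -0.20. In fatty acid synthesis 9 of 13 rose and 4 fell, with a median of 1.12, and 7 and 4 with the trend removed, with a median of 0.44. Srebf1, the lipogenic transcription factor that is made as a membrane protein, read 668 to 714 CPM against 208 to 236, and Scd2, a desaturase, 2823 to 2903 against 666 to 1103.

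Glycolysis showed the same division, with 8 of 21 higher and 12 lower, and 8 and 11 with the trend removed. The transporters and a hexokinase were at the upper end. Slc2a3, the neuronal-type glucose transporter, read 98.4, 95.2 and 98.9 CPM in the knockdown, 14.2, 16.2 and 16.1 with guide 1 and 20.2, 16.9 and 17.9 with guide 4. Slc16a3, a lactate exporter, read 9.05 to 10.8 CPM against 0.0558 to 1.22, and Hk1, hexokinase 1, 28.8 to 31.7 against 5.09 to 7.01 with guide 1 and 2.3 to 3.1 with guide 4. Hk1 was in the wild type at 46.5 CPM, above all other groups. The cytosolic enzymes Gapdh and Ldha, picked after their values were seen, read 2351 to 2438 and 1584 to 1635 CPM against 4046 to 5524 and 2028 to 2639. By segment, the 9 genes with one had a median of 1.35 and the 12 without one a median of -0.49. Over the 26 lists with at least 3 tested members of each kind, the median of members with a segment was above that of the others in 21.

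**Figure D4:**
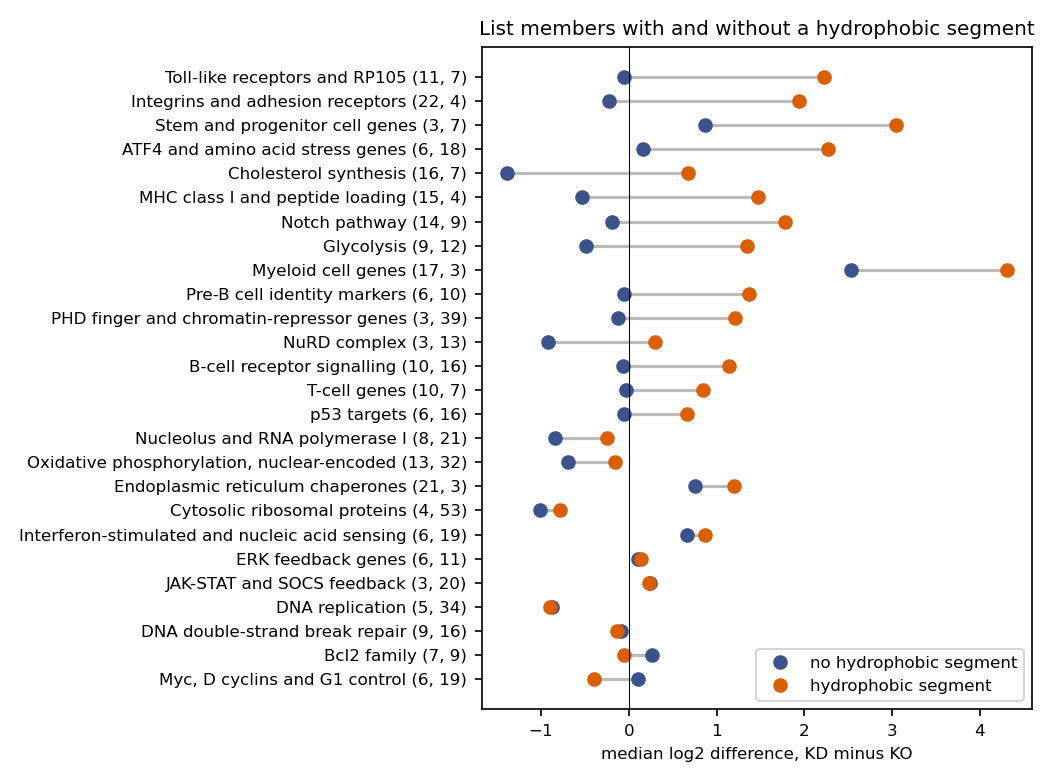
Median log2 difference between knockdown and knockouts (x axis) of the members with (orange) and without (blue) a hydrophobic segment, for the 26 lists with at least 3 tested members of each kind; brackets give the 2 numbers of genes. The orange point lies to the right of the blue one in 21 lists, among them cholesterol synthesis and glycolysis.

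Among genes of B-cell identity, more markers were higher than lower and more transcription factors lower than higher, but both balances were weaker once the hydropathy trend was removed. Of 16 pre-B markers tested 10 rose and 4 fell, with a median of 0.87, against 8 and 5 and a median of 0.20 with the trend removed. The 13 markers used to check the cells summed to 16500 to 17000 CPM in the knockdown against 5870 to 7870 in the knockouts and 7170 to 7640 in the wild type. Cd79b, a signalling chain of the B-cell receptor, read 1846, 1790 and 1854 CPM in the knockdown, 569, 559 and 576 with guide 1 and 465, 554 and 548 with guide 4. Igll1 and Vpreb1, the surrogate light chain, differed by 1.56 and 1.49, and Ptprc, the CD45 phosphatase, by 2.27. These 4 were the called markers with the largest differences, and their groups did not overlap, as for 36.1% of all genes in this direction. The wild-type mean of Cd79b, 706 CPM, was closer to the knockouts than to the knockdown. Of 25 B-cell transcription factors tested, 15 fell and 4 rose, with a median of -0.30. With the trend removed 10 fell and 7 rose, with a median of -0.04. With library totals 10 fell and 8 rose, while over all genes that scaling gave 3774 lower and 6356 higher. Id3, an inhibitor of E proteins, read 19.5, 19.2 and 18.7 CPM in the knockdown, 97.1, 95.8 and 98.5 with guide 1 and 86.3, 110.0 and 109 with guide 4, a difference of -2.38 ± 0.08. Irf4, which drives light-chain rearrangement, read 12.2 to 13.7 CPM against 27.4 to 38.6, Pou2af1, a coactivator of octamer factors, 239 to 261 against 532 to 641, and Lef1, a Wnt effector of early B cells, 32.5 to 34.9 against 51.1 to 116.

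The central regulators of the lineage differed less. Pax5, which commits cells to the B lineage, read 106, 101 and 96.5 CPM in the knockdown, 189, 140.4 and 217 with guide 1 and 121, 202 and 141 with guide 4, a difference of -0.72 ± 0.15 that did not pass the test once the hydropathy trend was removed (-0.25, adjusted p = 0.107 by edgeR). Ikzf1, encoding Ikaros, differed by -0.44, and with library totals by -0.20 (adjusted p = 0.0712 by edgeR). Ebf1, which acts with Pax5, read 55.7 to 61.2 CPM against 51.4 to 56.6 with guide 1 and 59.5 to 79.7 with guide 4, groups that overlap (adjusted p = 0.399 by edgeR). Il7r, the interleukin-7 receptor, turned from 1.08 to -0.16 with the trend removed, so that its direction rests on how the difference by protein class is treated. Spn, the CD43 sialoglycoprotein, likewise went from 1.40 to -0.08. Bcl6, a repressor active in pre-B cells, read 1.21 to 1.53 CPM against 1.28 to 1.53 with guide 1 and 1.86 to 2.29 with guide 4, groups that overlap. B-cell receptor signalling gave 15 higher and 8 lower of 26, with a median of 0.66, but 12 and 9 with the trend removed, with a median of 0.10. There Fcgr2b, the inhibitory receptor for immunoglobulin G, read 112 to 116 CPM against 11.2 to 14.6, Fcrl1, a coreceptor, 44 to 45.6 against 8.64 to 10, and the adaptor Blnk 81.2 to 84.4 against 159.6 to 187. Blk, a B-cell kinase related to Src, read 6.93 to 8 CPM against 0.526 to 1 and 2.91 to 3.84, with a wild-type mean of 39. Genes of mature and activated B cells gave 9 higher and 1 lower of 13, with a median of 1.10, and 5 and 5 with the trend removed. Cr2, the complement receptor, read 99.4 to 107 CPM against 29.9 to 37.8, and the costimulator Cd80 had 139 counts in the knockdown against 4 in the knockouts. Cd80 passed the filter on low counts through the knockdown alone, with 16 counts in the wild type.

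Genes tied to the means of perturbation were looked at next, since a hairpin loads the RNA interference machinery and Cas9 makes double-strand breaks. Of 16 RNA interference genes 3 rose and 4 fell, with a median of -0.15, and 6 and 5 with the trend removed. Drosha, the nuclear microRNA processor, read 42.9, 46.1 and 44.9 CPM in the knockdown, 80.1, 81.9 and 82.5 with guide 1 and 89, 89.9 and 93.6 with guide 4. Eif2c4, the Argonaute 4 gene, read 26 to 30 CPM against 13.9 to 20.4. Interferon-stimulated and nucleic acid sensing genes gave 15 higher and 5 lower of 25, with a median of 0.66, and 16 and 4 with the trend removed. Tmem173, encoding the cytosolic DNA sensor adaptor STING, read 226 to 241 CPM against 32.5 to 68.3, and Mx2 and Oas2, antiviral effectors, 2.53 to 2.91 and 1.61 to 2.22 against 0.0809 to 0.391 and 0.059 to 0.238. Of 22 p53 targets 10 rose and 7 fell, with a median of 0.05, and 10 and 9 with the trend removed. Btg2, an antiproliferative target, read 11.8 to 12.9 CPM against 0 to 0.0809 with guide 1 and 2 to 2.76 with guide 4, Bbc3, the apoptosis inducer PUMA, 30.5 to 34 against 7.62 to 15.4, and Gadd45a, a stress sensor, 1.21 to 1.55 against 7.46 to 10.1. Cdkn1a, the cell cycle inhibitor p21, read 64.5 to 65.5 CPM in the knockdown, 53.9 to 62.5 with guide 1 and 15.4 to 17.8 with guide 4, differences of 0.12 and 1.95 on the log2 scale. Double-strand break repair gave 7 higher and 11 lower of 25, with a median of -0.10, and 6 and 13 with the trend removed. Nbn, which acts in break sensing, differed by -1.39.

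Signalling downstream of the BCR-ABL1 kinase was mixed. Of 24 JAK-STAT and feedback genes 13 rose and 7 fell, with a median of 0.21, and 16 and 5 with the trend removed. There Socs3, a feedback inhibitor, read 51.3 to 53.5 CPM against 8.09 to 10.9. Pim1, a STAT5 target kinase, read 212 to 221 CPM against 46.6 to 89.7. Of 25 genes of Myc, D cyclins and G1 control, 10 rose and 11 fell, but 14 and 8 with the trend removed. Ccnd1, encoding cyclin D1, read 238, 239 and 229.5 CPM in the knockdown, 18.4, 21.6 and 18.1 with guide 1 and 31, 26.8 and 27.4 with guide 4, against 255 in the wild type. For this gene the knockdown was near the wild type and both guides were far below. Myc read 376 to 379 CPM against 251 to 303. The immediate early and AP-1 list gave 10 higher and 7 lower of 25, and 14 and 4 with the trend removed, with Atf3, a stress-induced factor, at 15.1 to 16.5 CPM against 1.39 to 2.9. ERK feedback gave 8 higher and 3 lower of 17, and 9 and 5 with the trend removed. The Bcl2 family gave 5 and 5 of 16, and 4 and 8 with the trend removed. V(D)J recombination and end joining gave 3 higher and 9 lower of 15, with a median of -0.42, and 4 and 9 with the trend removed. Hmgb1 and Hmgb2, chromatin proteins that assist the recombinase, differed by -1.57 and -1.51, and Dntt, the terminal transferase, read 0.57 to 0.792 CPM against 1.18 to 1.8. In lists of other cell types many members were not tested. Natural killer genes gave 1 higher and 1 lower of 2 tested (16 listed), and erythroid and megakaryocyte genes 4 and 1 of 9 (19 listed). Stem and progenitor genes gave 8 and 1 of 10 (19 listed), and stromal and endothelial genes 5 and 0 of 5 (17 listed). With the trend removed these lists gave 1 and 1, 3 and 2, 9 and 1, and 5 and 0. Of the 5 stromal and endothelial genes, Krt18 rested on 6 counts in the knockdown against 1 in the knockouts. Its groups overlapped, and the wild type had 1.88 CPM. Sparc passed the filter on low counts through the knockdown alone. The 3 stromal and endothelial markers used to check the cells summed to 3.25 to 3.92 CPM in the knockdown and 0.223 to 0.59 in the knockouts. Pecam1, a member of that list, was not low, at 88.7 to 89.3 CPM against 25.6 to 30.4. Igf1, a growth factor, read 17.4 to 20.7 CPM in the knockdown, 42.2 to 42.7 with guide 1 and 27.6 to 28.9 with guide 4, all above the wild-type mean of 3.82.

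For 188 genes (1.52%) the knockdown was called above one guide and below the other, 94 in each order (0.762%), in a pair of comparisons that share the knockdown libraries. Rag1 and Rag2, the neighbouring genes of the recombinase that cuts immunoglobulin loci, were among them, as was Phf6. Rag1 read 56, 59.3 and 60.4 CPM in the knockdown, 15.2, 16 and 13.6 with guide 1 and 106, 69 and 80 with guide 4, with differences of 1.97 and -0.54. Rag2 read 9.61, 10.8 and 10.8, 7, 8.13 and 5.75 and 30.4, 23.8 and 28.1 CPM in the same order, with 0.56 and -1.40. In both genes the 3 groups were separate, with guide 4 at the top, and the mean over the guides hides this. With the knockouts as 1 group neither was called (edgeR adjusted p = 0.737 and 0.194). The most extreme genes of this kind were nearly silent with 1 guide. Eid2, an inhibitor of differentiation, read 1.81, 1.58 and 2.22 CPM in the knockdown, 13.4, 12.1 and 13.9 with guide 1 and 0.031, 0 and 0 with guide 4. Tes, a focal adhesion protein, read 1.97 to 2.87 CPM against 14.8 to 17.2 and 0 to 0.155, and Nexn, an actin-binding protein, 0.538 to 0.641 against 2.91 to 3.68 and 0.031 to 0.068. Zfp354c, a zinc finger protein, and Sfmbt2, a Polycomb-group gene, had the other order, with 0 counts with guide 1, 3.6 to 3.93 and 0.612 to 0.96 CPM with guide 4, and 0.475 to 0.687 and 0.0624 to 0.113 in the knockdown. For Sfmbt2 the knockdown level rests on 7 counts and was only bounded, at 1.98-fold or more above guide 1. Wild-type means were 1.27 CPM for Eid2, 2.56 for Tes and 0.141 for Zfp354c, nearest to the knockdown for Eid2 and Tes and between guide 1 and the knockdown for Zfp354c.

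**Figure D5:**
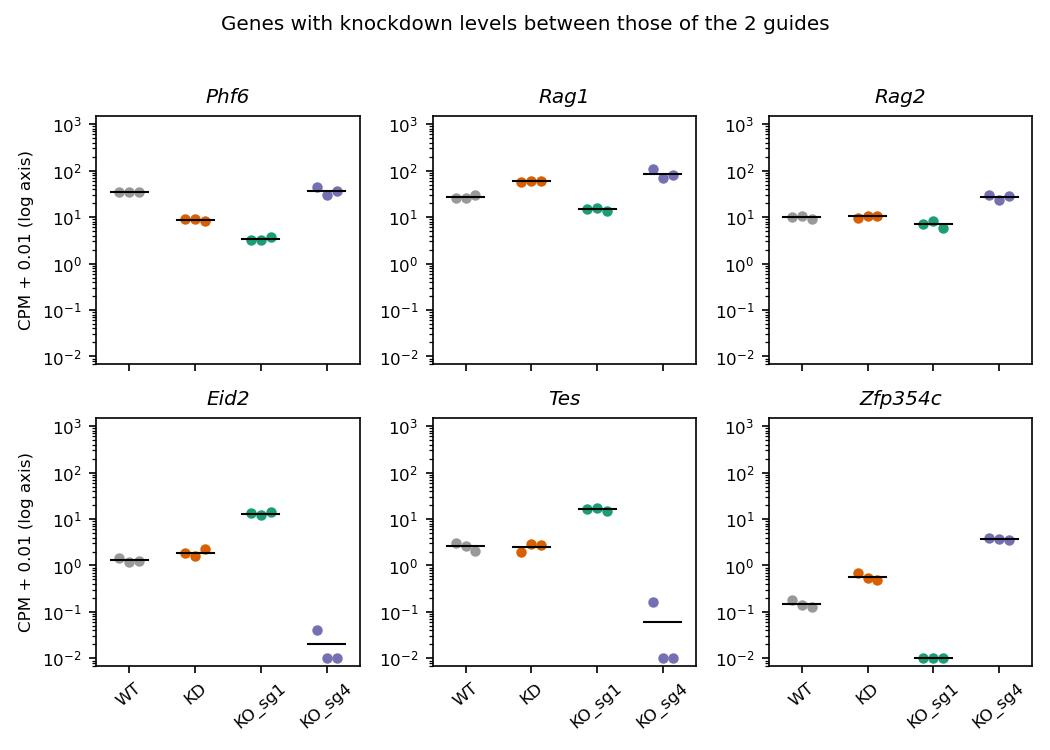
CPM + 0.01 (log axis, the same in all panels) of 6 genes in each library, with 3 points and a mean line per group (WT, wild type; KD, knockdown; KO_sg1 and KO_sg4, the 2 guides). The knockdown lies between the guides in each panel; guide 4 is the higher one for Phf6, Rag1, Rag2 and Zfp354c, and guide 1 for Eid2 and Tes.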

How the data were processed

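The table holds estimated counts per gene for 12 libraries, deposited by the authors and made with Bowtie 1.0.1 and RSEM 1.2.12 on mm9, per the submitters' processing notes; for the annotation and the strand setting the entry is: not given in the sources used here. Reads that fit several genes are divided by RSEM, which affects near-identical copies. Libraries were made with the Illumina TruSeq mRNA kit, per the labels' protocols. Totals ran from 20382328 to 36032369 estimated counts, so 3 counts correspond to 0.0833 to 0.147 CPM. Counting intervals and limits cover counting error only, and reads carry no molecular identifiers.

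Estimated counts were rounded, genes kept by filterByExpr with a minimum count of 10, and scaled by TMM (factors 0.88 to 1.14). This filter needs enough counts in 3 libraries, so a gene can pass through 1 group alone. One quasi-likelihood model in edgeR 4.0.16 (R 4.3.3) with 4 group means was fitted to all 12 libraries, which share 1 estimate of spread. The contrast was the knockdown minus the mean of both guides on the log2 scale, called at a Benjamini-Hochberg adjusted p under 0.05; SE is the difference divided by the root of F. Alternatives included DESeq2 1.42.0 and limma 3.58.1. Within groups, replicates differed beyond counting noise (chi-square per degree of freedom 3.38 to 64.1). This value was 3.38 to 6.05 in the knockdown, 9.76 to 38.8 with guide 1 and 42.7 to 64.1 with guide 4. The shared estimate of spread makes no allowance for this inequality between groups. Same-numbered libraries had correlations of -0.238 to 0.101 over 9 pairs, so numbers do not pair them.

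Hydropathy was computed from the longest coding sequence per symbol in GENCODE vM21, available for 93.2% of the genes tested. Named genes are the 14 highest and 14 lowest called against both guides with a group mean of at least 5 CPM, the called members of each list with the largest differences, 4 at most, the 5 genes furthest on opposite sides of the guides, and a short fixed set; gene models without a standard symbol were skipped, and other genes are said to be picked after their values were seen. Some genes that this rule names are not reported here. The comparison, the lists and the named set were chosen with earlier results of these data known.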

Additional observations from a re-analysis of the deposited data

Results flagged for a closer look

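For 26 of the genes named in the text the 2 guides themselves differed by at least 2-fold in a test of that difference (edgeR, Benjamini-Hochberg adjusted p under 0.05), so that the mean over the guides describes neither. Values are guide 4 minus guide 1 on the log2 scale. Guide 4 was higher for Phf6 (3.45), Rag1 (2.51), Rag2 (1.96), Il7r (1.35), Blk (2.08), Klrb1c (2.08), Itgam (1.48), Slc16a3 (2.01) and Btg2 (5.45). Guide 1 was higher for Zfp462 (-1.73), Cacna1h (-1.12), Sh2d2a (-1.52), H2-DMb1 (-1.33), H2-DMa (-1.32), Tgfbr1 (-2.51), Cd28 (-1.87), Hk1 (-1.09), Cdkn1a (-1.83), Tes (-7.95) and Nexn (-5.88). Where 1 guide had 3 counts or fewer, the level with the other guide is given instead: a mean of 0.298 CPM with guide 1 for Ccl3 and 13.2 CPM with guide 1 for Eid2, and with guide 4 a mean of 0.523 CPM for Olfm1, 0.189 CPM for Rap1gap2, 0.752 CPM for Sfmbt2 and 3.72 CPM for Zfp354c. In 17 of the 26 genes all knockdown libraries stood on the same side of all knockout libraries, for instance Slc16a3, at 9.05 to 10.8 CPM against 0.0558 to 1.22. Over all genes tested, they stood above all knockout libraries for 36.1% and below for 35.6%. Some of the 26 genes were named because they were called in the same direction against both guides.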

How the results depend on the processing

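Across 24 alternatives (scalings, filters, tools, samples in the fit, each library left out, and 2 chosen after seeing the data), the counts of genes higher and lower stayed within 1.5 times their values except in 3 cases. Genes at least 2-fold lower numbered 537 with library totals, against 1270, and after removal of the hydropathy trend 1827 genes were at least 2-fold higher, against 2937, and 811 lower. Leaving out 1 library at a time gave 5196 to 5703 genes higher and 4653 to 5151 lower, 3012 to 3192 and 1188 to 1347 at 2-fold, 4912 to 5495 and 4519 to 4986 against guide 1, 4770 to 5274 and 4704 to 5158 against guide 4, and 148 to 254 on opposite sides of the guides. With the replicate number as a block the counts were 5204 and 4904; the numbers do not pair the libraries. Of 3538 values of named genes under alternatives, 7 reversed. With the hydropathy trend removed these were Phf6 (0.05), Il7r (-0.16), Spn (-0.08) and Sqle (-0.20). With the knockouts as 1 group they were Eid2 (-1.80), Zfp354c (-1.73) and Tes (-1.67), whose mean over the guides averages opposite differences. For Phf6, edgeR gave adjusted p = 0.489 with library totals and 0.188 with the knockouts as 1 group. The spread within a group rests on 3 libraries, a level under about 0.1 CPM rests on a few counts, and neither the Y-linked transcripts nor the non-polyadenylated RNAs can be separated from the way Phf6 was reduced.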

Other observations

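Long non-coding RNA genes were mostly higher in the knockdown, whereas Rpph1 and, for the most part, Rn45s went the other way, as given above. Of 534 long non-coding RNA genes tested, 61.4% were higher and 12.7% lower, with a median log2 difference of 0.73, against 41.8% and 42.0% of 11514 protein-coding genes. Neat1, the scaffold of nuclear paraspeckles, picked after its value was seen, read 121, 115 and 117 CPM in the knockdown, 24, 22.8 and 24.3 with guide 1 and 26.5, 24.6 and 18.8 with guide 4, against 25.6 in the wild type. The groups did not overlap, as for 36.1% of all genes in this direction, and the 2 guides were close to the wild type. Of 13 microRNA genes tested, 53.8% were higher and 15.4% lower. By chromosome, autosomal medians ran from -0.06 on chromosome 13 to 0.17 on chromosome 17, and the X chromosome, which carries Phf6, had 0.15; the 4 Y-linked genes tested had 9.38.

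Some genes of other cell types had low levels that were higher in the knockdown, and others did not. Flt3, a receptor of early progenitors, had 55 counts in the knockdown against 13 in the knockouts, a ratio of 7.45 (4.02 to 14.9), and Gfi1, a repressor active in progenitors, had 47 against 20, a ratio of 4.14 (2.40 to 7.37). Sparc, a matrix protein, had 61 against 4, a ratio of 26.9 (9.97 to 102.0), and Thy1, a T-cell surface protein, 81 against 0, at least 47.5-fold. These counts are sums over 3 knockdown and 6 knockout libraries, scaled for library size in the ratios, and the intervals cover counting error only. Gfi1, Sparc and Thy1 had 27, 6 and 20 counts in the wild type and passed the filter on low counts through the knockdown alone. Their excess there was therefore a condition of being tested. Klrb1c, a natural killer cell receptor, was lower than with guide 4, at 0.506 to 0.792 CPM in the knockdown against 3.53 to 4.3. It overlapped guide 1, at 0.725 to 1.21 CPM, and was not called against it (edgeR adjusted p = 0.0953). The other natural killer gene tested was called higher. Of 17 genes of the T-cell list 3 were lower and 6 higher.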
